A study of Arabidopsis thaliana with 6 samples.

Results

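The genes described here are 10 Arabidopsis thaliana genes that respond to low oxygen: AT3G10040 (HRA1), AT4G10270, AT4G33560, AT2G17850, AT4G27450, AT3G27220, AT4G24110, AT5G10040, AT5G66985 and AT1G33055. They were chosen by locus, after earlier results on these arrays had shown them to differ between EBE-XVE and WT in opposite directions in replicate pairs 2 and 3. Each was measured by 1 probe set, so the genes made up 10 of 13350 named genes and 10 of the 22746 probe sets tested. The values that chose them are given below as a description, without a test. All 10 were measured on every array and none was lost to a filter.

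RNA from shoots of 3-week-old seedlings was measured on 6 Affymetrix ATH1 arrays, 3 of EBE-XVE line 14 and 3 of the wild type (WT), Col-0. EBE-XVE is a Col-0 line in which estradiol switches on EBE (AT5G61890), a transcription factor gene of the AP2/ERF family. Both genotypes were shaken in liquid medium for 16 h and then given 2 µM β-estradiol for 45 min, so all 6 arrays came from estradiol-treated seedlings in liquid medium and no untreated group was analysed here. EBE-XVE was represented by a single line, so what induced EBE does and what else sets that line off from Col-0 cannot be told apart. The replicates are called biological in the titles, and nothing further on their origin is given.

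Plant cells sense oxygen through the N-degron pathway. With oxygen present, plant cysteine oxidases oxidise the N terminus of group VII ERF transcription factors such as RAP2.12, which are then degraded. When oxygen falls, these factors persist and switch on genes of fermentation, sugar breakdown and signalling, together with a core set of transcripts that rise in many cell types of the seedling. HRA1 is a trihelix transcription factor of that core set. It binds RAP2.12 and dampens its activity, and its own gene is switched on by RAP2.12.

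EBE was checked first. Signals are normalized values per probe set, read as log2 from their range, and every fold below rests on that reading. The log2 signal of EBE was 8.55, 7.21 and 3.19 on EBE-XVE arrays 1, 2 and 3, and 4.26, 2.98 and 3.02 on the WT arrays of the same numbers. The array labelled EBE-XVE replicate 3 thus did not show the raised EBE that its label implies, and it is called by its label below. The replicate 1 arrays also stood apart, with a median log2 signal of 5.38 and 5.47 against 4.44 to 4.50 on the other 4 arrays. These medians were 0.90 and 0.99 log2 units above that of the averaged WT replicates 2 and 3, while the median over probe sets of the difference itself was 0.26 and 0.25. Median centring, used below, therefore takes more off the replicate 1 arrays than the typical probe set had gained. The shoot markers LHCB4.1 and PSAN, the 2 of 9 listed that had a named probe set, read 13.10 to 13.72 and 11.99 to 13.16. Of the 9 root markers, 3 had one. EXPA7 and EXPA18 were dimmer than the lower quartile on all 6 arrays, while PYK10 read 12.14 and 12.26 in replicate 1 and 8.58 to 9.21 elsewhere. The part of these array differences in the results below was not tested.

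The array labelled EBE-XVE replicate 3 gave the lowest of the 6 values for all 10 genes, and EBE-XVE replicate 2 the highest for 7. Over all probe sets, 38.0% were lowest on the first of these arrays and 2.52% highest on the second. The replicate 1 arrays were above WT replicates 2 and 3 for 56.3% of probe sets. With each array centred on its median, 7 genes were lowest on the array labelled EBE-XVE replicate 3, against 8.77% of all probe sets. EBE-XVE replicate 2 was then highest for 9 genes, against 7.52%. In no gene were the 3 EBE-XVE values wholly above or below the 3 WT values, which held for 1.38% of all probe sets. This follows from the choice of the genes, since opposite directions in pairs 2 and 3 make the groups overlap.

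**Figure D1:**
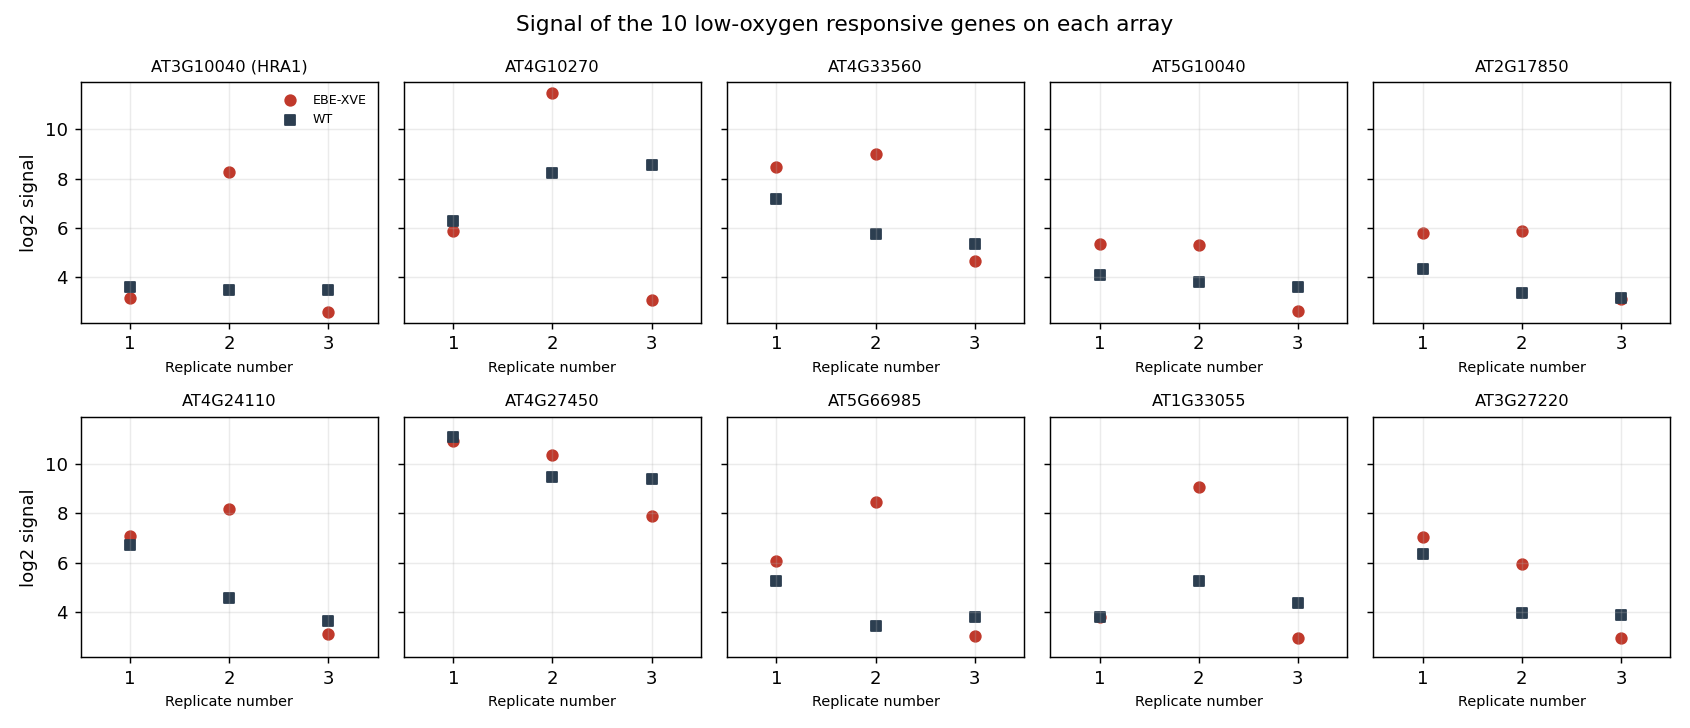
Log2 signal of each gene (vertical axis) on the arrays of replicates 1, 2 and 3 (horizontal axis); each point is 1 array, circles EBE-XVE and squares WT. In replicate 2 the EBE-XVE point lies above WT in all 10 panels and in replicate 3 at or below it, with AT4G10270 showing the widest span, 3.06 to 11.46.

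HRA1 was low on 5 arrays and high on 1. Its log2 signal was 3.15, 8.25 and 2.59 on EBE-XVE arrays 1 to 3, and 3.58, 3.49 and 3.47 on WT arrays 1 to 3. The 3 WT values were close together (3.51 ± 0.056, SD, n = 3), while the EBE-XVE values ran from below all of them to far above (4.66 ± 3.12, SD, n = 3). EBE-XVE replicate 2 lay 4.76 log2 units from the median of the 6 arrays, and the next farthest array, the one labelled EBE-XVE replicate 3, lay 0.89 below it. Within pair 2 HRA1 was 27.0-fold higher in EBE-XVE. The value on the array labelled EBE-XVE replicate 3 stood at percentile 28.4 of that array's probe sets, close to its lower quartile of 2.50.

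AT4G10270 encodes a small protein of the wound-responsive family and was the one gene of the 10 that lay over 4 log2 units from its median in both directions. EBE-XVE arrays 1 to 3 read 5.86, 11.46 and 3.06, and WT arrays 1 to 3 read 6.28, 8.23 and 8.55. EBE-XVE replicate 2 lay 4.21 above the median of the 6 values and the array labelled EBE-XVE replicate 3 lay 4.19 below it. In pair 2 the gene was 9.38-fold higher in EBE-XVE, and in pair 3 it was 44.7-fold higher in WT. WT replicates 2 and 3 differed by 0.31, less than either departure. Here and below, this gap rests on 2 arrays and does not measure the spread among replicates. Both replicate 1 arrays lay below WT replicates 2 and 3, although their median signal was higher.

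AT4G33560 encodes another wound-responsive family protein and followed a different order. EBE-XVE arrays 1 to 3 read 8.47, 8.99 and 4.65, and WT arrays 1 to 3 read 7.17, 5.74 and 5.32. EBE-XVE replicates 1 and 2 were thus above every WT array, the first by 1.299 over WT replicate 1. The gene was 9.47-fold higher in EBE-XVE in pair 2 and 1.60-fold higher in WT in pair 3. The last gap (0.68) was not much wider than the 0.42 between WT replicates 2 and 3.

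AT2G17850 encodes a rhodanese-like protein, a family of sulfur transferases. Its EBE-XVE arrays 1 to 3 read 5.79, 5.86 and 3.12 and its WT arrays 4.34, 3.34 and 3.13. EBE-XVE replicates 1 and 2 were 0.076 apart, and both were above all WT values. The array labelled EBE-XVE replicate 3 and WT replicate 3 were 0.0076 apart, so their order cannot be told. With quantile normalization or median centring this was the one gene of the 10 that no longer lay below WT in pair 3.

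AT4G27450, annotated as an aluminium-induced protein, had the smallest difference in pair 2. EBE-XVE arrays read 10.94, 10.35 and 7.91, and WT arrays 11.10, 9.47 and 9.40. It was the only one of the 10 for which the array labelled EBE-XVE replicate 3 was the farthest, 2.00 below the median of the 6 values, with WT replicate 1 next at 1.19 above. Replicate 1 of both genotypes was highest, 0.15 apart, although with median centring EBE-XVE replicate 2 was the highest array. In pair 2 the gene was 1.85-fold higher in EBE-XVE and in pair 3 2.81-fold higher in WT, while WT replicates 2 and 3 differed by 0.066.

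AT3G27220, which encodes a kelch-repeat protein, was also highest in replicate 1. EBE-XVE arrays read 7.02, 5.94 and 2.95, and WT arrays 6.34, 3.93 and 3.88. EBE-XVE replicate 1 lay 2.09 above the median and the array labelled EBE-XVE replicate 3 lay 1.98 below it. The gene was 4.01-fold higher in EBE-XVE in pair 2 and 1.90-fold higher in WT in pair 3. Each was wider than the 0.052 between WT replicates 2 and 3. The pair 3 difference was -0.93 log2 units, while the SD of the WT values was 1.40 (n = 3).

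AT4G24110 read 7.10, 8.19 and 3.10 on EBE-XVE arrays 1 to 3 and 6.70, 4.57 and 3.63 on the WT arrays. EBE-XVE replicate 2 was 2.55 above the median and the array labelled EBE-XVE replicate 3 was 2.53 below it, nearly as far. The difference of 12.2-fold in pair 2 was wider than the gap between WT replicates 2 and 3. That of 1.44-fold in pair 3 (0.52 log2 units) was not, since WT replicates 2 and 3 were 0.95 apart.

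No role is stated here for the proteins of AT4G24110 and of the last 3 genes. AT5G66985 read 6.06, 8.44 and 3.02 on EBE-XVE arrays and 5.26, 3.44 and 3.77 on WT arrays. Its 32.02-fold higher signal in EBE-XVE in pair 2 was the highest ratio of the 10 genes in that pair. EBE-XVE replicate 2 stood 3.93 above the median of the 6 values, with EBE-XVE replicate 1 next at 1.54.

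AT1G33055 read 3.80, 9.05 and 2.95 on EBE-XVE arrays and 3.79, 5.26 and 4.37 on WT arrays. Like HRA1 it had 1 high array, EBE-XVE replicate 2, at 4.96 above the median, the farthest of any array for any of the genes. The replicate 1 arrays were 0.0083 apart and below WT replicates 2 and 3. The gene was 13.9-fold higher in EBE-XVE in pair 2 and 2.67-fold higher in WT in pair 3.

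AT5G10040 had the narrowest range, 2.71 log2 units. EBE-XVE arrays read 5.35, 5.30 and 2.64, and WT arrays 4.08, 3.79 and 3.61. EBE-XVE replicates 1 and 2 were 0.050 apart, less than the 0.17 between WT replicates 2 and 3, so their order cannot be told. In pairs 1 and 2 the gene was 2.41-fold and 2.84-fold higher in EBE-XVE, and in pair 3 it was 1.97-fold higher in WT.

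Counted by array, EBE-XVE replicate 2 stood farthest from the median for 7 of the 10 genes. EBE-XVE replicate 1 did so for AT5G10040 and AT3G27220, and the array labelled EBE-XVE replicate 3 for AT4G27450. No WT array was the farthest for any gene. In the transcripts of a whole shoot, a higher signal from more cells of a type and from more RNA per cell cannot be told apart.

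The design asks which genes differ between estradiol-treated EBE-XVE and WT. Over all 22746 probe sets, limma called 0.0% at an adjusted p under 0.05, and 79 probe sets had an unadjusted p under 0.05. The 79 are far fewer than the share of 0.05 that evenly spread p-values would give where nothing differs. EBE itself, at 2.90 (SE 1.38), was not called. The absence of calls therefore does not show that the genotypes were alike. Between group means, the 10 genes differed by -0.89 to 1.68 log2 units (EBE-XVE minus WT), with a median of 0.97 beside -0.0044 over all probe sets. The highest was AT5G66985 at 1.68 (SE 1.39), followed by AT2G17850 at 1.32 (SE 0.82) and AT4G33560 at 1.29 (SE 1.23). HRA1 differed by 1.15 (SE 1.49). AT4G10270 at -0.89 (SE 2.11) and AT4G27450 at -0.25 (SE 0.90) were the genes below WT. For 7 of the 10 genes the difference was smaller than its own SE, and for 3 when the replicate number was a block in the fit.

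Single arrays set these group differences. Without the array labelled EBE-XVE replicate 3, all 10 genes were above WT, by 0.66 to 3.09 log2 units, and the median was 2.07. Without EBE-XVE replicate 2, 6 genes were above WT and the median was 0.15. HRA1 then stood at -0.64, AT1G33055 at -1.10 and AT4G10270 at -3.22. Without WT replicate 3 the median was 0.62.

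Set out pair by pair, the genes were raised together in pair 2. There EBE-XVE exceeded WT for all 10 genes, beside 67.6% of all probe sets, and for 9 by at least 2-fold, beside 1.52%. The exception was AT4G27450, at 0.89 log2 units, just inside the dotted 2-fold line of the plot of pair differences. The pair 2 differences ran from 0.89 to 5.001, with a median of 3.24, while the median over all probe sets was 0.013. In pair 3 all 10 were lower in EBE-XVE, or 9 with quantile normalization or median centring, beside 71.6% of all probe sets. At least 2-fold lower were AT4G10270, AT4G27450 and AT1G33055, 3 of 10 beside 1.21% of all probe sets. With quantile normalization this count was 5, beside 1.17%, as AT5G10040 and AT3G27220 passed 2-fold. The pair 3 median was -0.91. In the deposited values the directions were the same whichever of WT replicates 2 and 3 was the partner. Among these 4 arrays EBE-XVE replicate 2 was highest for all 10 genes, beside 17.5% of all probe sets. The array labelled EBE-XVE replicate 3 was lowest for all 10, or for 9 with quantile normalization or median centring, beside 56.9% in the deposited values. These contrasts chose the genes, and each pair holds 1 array per genotype, so the counts are descriptions.

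**Figure D2:**
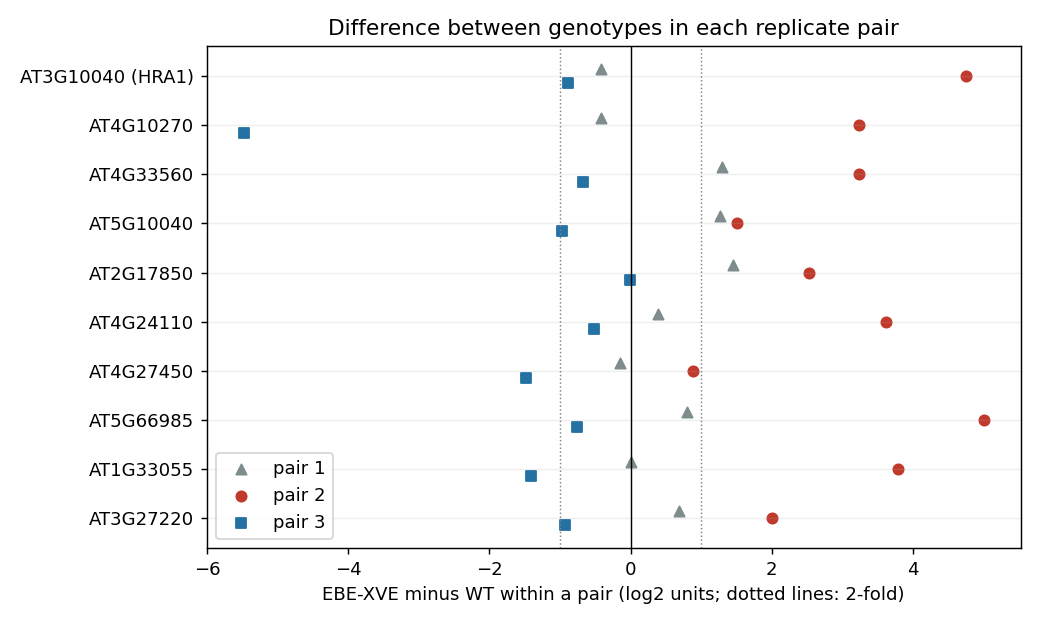
Difference between EBE-XVE and WT (horizontal axis, log2 units) for each gene (vertical axis) in replicate pairs 1, 2 and 3; each symbol is 1 array minus another and the dotted lines mark 2-fold. Pair 2 differences run from 0.89 to 5.001, pair 3 differences from -5.48 to -0.0076, and pair 1 differences lie between, from -0.43 to 1.45.

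Pairs 1 and 2 were alike in the EBE difference but not in the median difference of these genes. What part EBE had in this was not tested. EBE was 4.29 log2 units higher in EBE-XVE in pair 1, 4.23 higher in pair 2 and 0.17 higher in pair 3. The median difference of the 10 genes was 0.54, 3.24 and -0.91 in the same pairs. In pair 1 the genes at least 2-fold higher in EBE-XVE were AT4G33560 (1.299), AT5G10040 (1.27) and AT2G17850 (1.45), 3 of 10 beside 1.41% of all probe sets. These genes were at least 2-fold higher in pair 2 as well, and AT5G10040 was close in both, at 1.51 in pair 2. No gene of the 10 was at least 2-fold lower there, beside 3.53% of all probe sets. HRA1, at -0.43, and AT4G10270, at -0.42, were below WT in pair 1, although both were over 9-fold higher in pair 2.

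**Figure D3:**
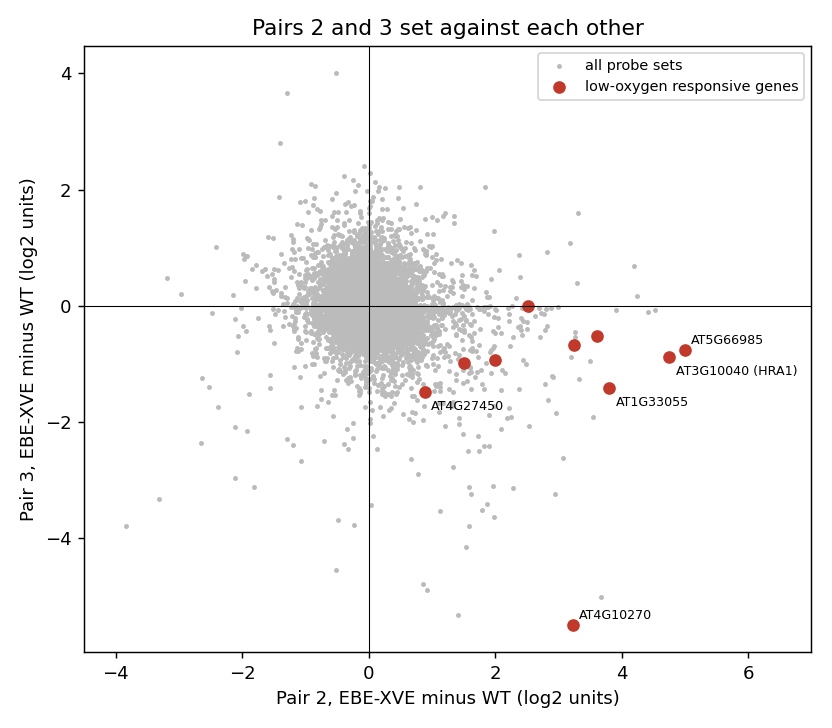
Difference between EBE-XVE and WT in pair 2 (horizontal axis) and in pair 3 (vertical axis), in log2 units, for all 22746 probe sets in grey and the 10 genes in red. The 10 genes lie to the right of 0 and at or below it, with AT4G10270 lowest at -5.48 in pair 3.

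Few probe sets of the whole table shared the combined pattern. Those at least 2-fold higher in pair 2 and at least 2-fold lower in pair 3 numbered 78, or 0.343%. Of the 10 genes, AT4G10270 and AT1G33055 were among them. With quantile normalization AT5G10040 and AT3G27220 joined them, 4 of the 10 beside 0.356% of all probe sets. Any rise in pair 2 with any fall in pair 3 was found for 53.8% of all probe sets. Direction alone was thus common, while a 2-fold rise in pair 2 was found for 345 probe sets.

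On the array labelled EBE-XVE replicate 3 most of the genes were dim. There 8 of the 10 lay below the array median and 6 below its 40th percentile of 3.10, and the median of the 10 genes stood at percentile 39.2. On EBE-XVE replicate 2 all 10 were above the array median, with their median at percentile 83.9. On WT replicates 2 and 3 it stood at percentiles 48.9 and 45.8. AT4G33560 and AT4G27450 were above the median of the array labelled EBE-XVE replicate 3, at percentiles 51.2 and 79.99. AT4G27450 stood at 91.0 to 95.8 elsewhere. How far a dim probe set could still fall was not measured.

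In the deposited values the replicate 1 arrays divided the 10 genes into a group of 7 and a group of 3. This division was made after the values were seen, and its count changed with the scaling. In 7 genes both replicate 1 arrays lay above WT replicates 2 and 3, a share not far from the 56.3% of all probe sets. These were AT4G33560, AT5G10040, AT2G17850, AT4G24110, AT4G27450, AT5G66985 and AT3G27220. With quantile normalization the count was 6, beside 32.7% of all probe sets, without AT5G10040. With median centring the count was 5, beside 15.1% of all probe sets, without AT5G10040 and AT2G17850. AT4G24110 and AT3G27220 were raised the most in WT replicate 1. Relative to the mean of WT replicates 2 and 3, AT4G24110 was 3.00 higher in EBE-XVE replicate 1 and 2.60 higher in WT replicate 1. AT3G27220 was 3.12 and 2.43 higher on the same arrays. With median centring these 4 values were 2.08, 1.59, 2.204 and 1.42, so both genes stayed at least 2-fold higher on both replicate 1 arrays, as did 3.62% of all probe sets.

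HRA1, AT4G10270 and AT1G33055 did not show that rise. Relative to WT replicates 2 and 3, AT4G10270 was -2.53 in EBE-XVE replicate 1 and -2.11 in WT replicate 1, and AT1G33055 was -1.01 and -1.02. HRA1 was -0.33 and 0.096, about level with WT replicates 2 and 3. With median centring, all 3 genes were lower on both replicate 1 arrays, the smallest difference being -0.91 for HRA1 in WT replicate 1. With quantile normalization that value was -0.43. The direction for HRA1 in WT replicate 1 therefore depended on the scaling.

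**Figure D4:**
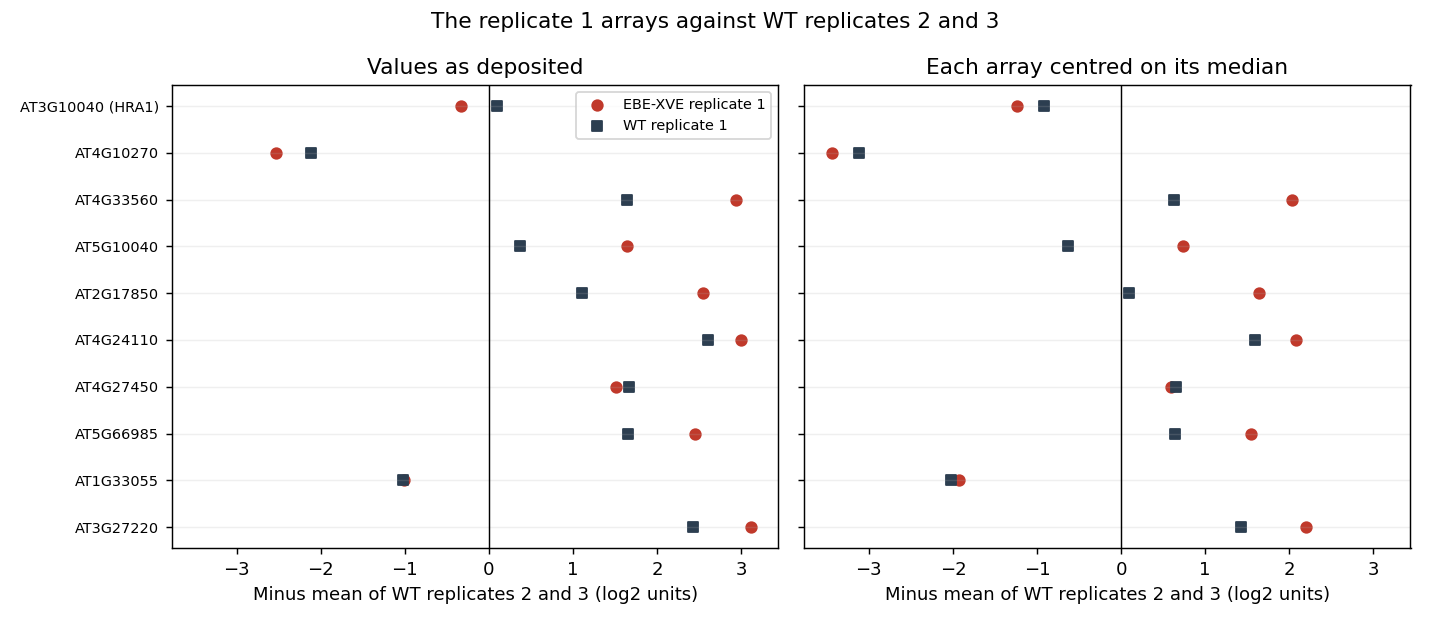
Signal on the replicate 1 arrays minus the mean of WT replicates 2 and 3 (horizontal axis, log2 units) for each gene (vertical axis), with circles for EBE-XVE replicate 1 and squares for WT replicate 1; values as deposited on the left, with each array centred on its median on the right. AT4G10270 and AT1G33055 lie left of 0 in both panels, and AT4G24110 and AT3G27220 lie right of 1 in both.

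Correlation among the genes was positive for all 45 gene pairs over the 6 arrays. Pearson's r ran from 0.25 to 0.98, with a median of 0.77, and 22 pairs were over 0.8. Spearman's rho had a median of 0.71. The closest pairs were AT4G33560 with AT4G24110 and with AT2G17850 (0.98 for both), HRA1 with AT1G33055 (0.97) and AT4G33560 with AT5G10040 (0.96). The wound-responsive genes AT4G10270 and AT4G33560 were not close, at 0.50. The least alike were AT1G33055 with AT3G27220 (0.25) and AT4G10270 with AT3G27220 (0.25). The 6 arrays share replicate pairs and the replicate 1 shift, and the genes were chosen for a common pattern, so these values are descriptions.

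In replicates 2 and 3 alone, which hold 4 arrays, the median r was 0.96. The genes were chosen for opposite differences in those pairs, so a high value there follows from the choice. Without EBE-XVE replicate 2 and the array labelled EBE-XVE replicate 3, the 4 remaining arrays gave a median of 0.47. Of the 45 pairs 21 were below 0, namely those of HRA1, AT4G10270 or AT1G33055 with one of the other 7 genes. These 4 arrays are the ones that divided the genes into 7 and 3, so these signs largely restate that division. The 4 HRA1 values left in that comparison spanned 3.15 to 3.58, a range too narrow to rank its correlations.

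**Figure D5:**
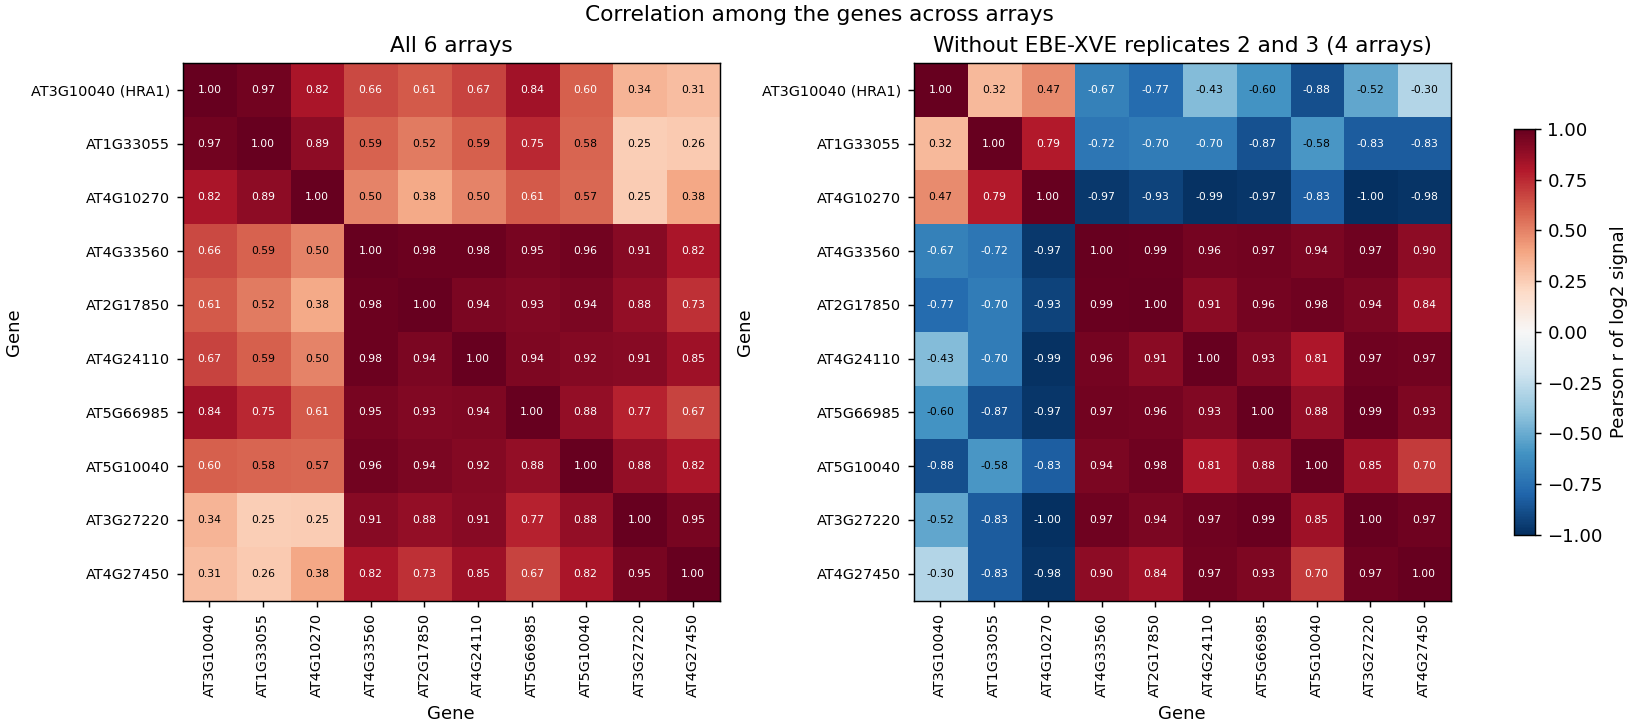
Pearson's r of log2 signal for each pair of genes (both axes), over all 6 arrays on the left and over the 4 arrays other than EBE-XVE replicates 2 and 3 on the right; red is positive and blue negative. On the left all 45 pairs are positive, from 0.25 to 0.98, and on the right HRA1, AT1G33055 and AT4G10270 are negative with the other 7 genes, which largely restates the division by replicate 1.

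Each gene was also set against the mean profile of the other 9. AT5G66985 was closest, at r = 0.96, followed by AT4G33560 at 0.92, AT4G24110 at 0.92 and AT5G10040 at 0.91. AT4G10270 was farthest, at 0.65. AT4G27450 stood at 0.70 and AT3G27220 at 0.71, and both had their highest array in replicate 1 in the deposited values, which for AT4G27450 did not hold with median centring.

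Over the whole table, 2474 probe sets spanned at least 2 log2 units across the 6 arrays, and 15 of them (0.606%) correlated with the mean profile of the 10 genes at r over 0.9, including 4 of the 10. Among named genes outside the 10, AT4G17670 was the most like, at r = 0.99 over the 6 arrays. It read 5.09, 6.03 and 3.89 on EBE-XVE arrays and 5.13, 4.66 and 4.70 on WT arrays. AT2G41730 (0.94), AT5G44910 (0.91), AT4G39675 (0.91), PRN, a pirin gene (0.91), and AT1G74940 (0.88) came next. EBE-XVE replicate 2 gave the highest value and the array labelled EBE-XVE replicate 3 the lowest in all 6. This largely follows from their choice, since the mean profile was itself highest (2.51) and lowest (-2.07) on those arrays. AT4G17670 and AT1G74940 are also on the list of other low-oxygen genes described next. The 6 were taken from 1293 named probe sets, and the share of those on that list was not counted.

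Of 44 other genes on a low-oxygen list, 16 had a named probe set. In pair 2, EBE-XVE exceeded WT for 15 of the 16, beside 67.6% of all probe sets, and for 7 by at least 2-fold, beside 1.52%. Their median was 0.87, beside 3.24 for the 10 genes. The 10 were chosen for their differences in pairs 2 and 3, so the gap between these medians can follow from that choice. In pair 3, 13 of the 16 were lower, a share near the 71.6% of all probe sets, and 3 were at least 2-fold lower, beside 1.21%, with a median of -0.37. In pair 1 the median was -0.031, with 3 of the 16 at least 2-fold lower, beside 3.53%, and 0 at least 2-fold higher, beside 1.41%. The array labelled EBE-XVE replicate 3 was lowest for 9, beside 38.0% of all probe sets, and EBE-XVE replicate 2 highest for 8, beside 2.52%.

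Among the regulators on that list, 2 of 12 had a named probe set. HRU1, a universal stress protein that takes part in hydrogen peroxide production under low oxygen, differed by 0.99, 0.69 and -1.83 in pairs 1, 2 and 3. CML38, a calmodulin-like protein found in stress granules under low oxygen, differed by -0.54, 3.29 and 0.40, so it shared the rise in pair 2 but not the fall in pair 3. Of the 10 metabolic genes 2 had a named probe set. PDC2, a pyruvate decarboxylase of ethanol fermentation, differed by 0.69, 0.52 and -0.58, and LDH1, the lactate dehydrogenase gene, by -0.41, 0.91 and -0.56. Neither ethylene gene was named here, and neither were the group VII factors, the cysteine oxidases PCO1 and PCO2, LBD41, ADH1, PDC1, SUS4 and HB1.

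The 12 other genes of the list with a named probe set had medians of -0.031, 0.97 and -0.30 in pairs 1, 2 and 3. The 3 with the highest mean signal were AT3G10020, AT2G36220 and AT1G26270. AT3G10020 differed by -1.37, -0.21 and -0.34, AT2G36220 by -1.86, 0.32 and 0.21, and AT1G26270 by -0.072, 1.33 and -0.26. The first of these was below WT in every pair. The 10 genes were chosen for opposite directions in pairs 2 and 3, so none of them could be.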

How the data were processed

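RNA from 6 shoot samples was measured on Affymetrix ATH1 arrays. The authors' deposited table holds 1 normalized log2 value per probe set and array, made with GCRMA and RMA per the submitters' processing notes, which give neither version nor role. The log base was read from the range of the values. Of 22810 probe sets, 64 controls were left out and 22746 tested. The platform annotation listed 1 symbol for 13513 probe sets, several for 503 and none for 8730, and 13508 matched a locus of TAIR10.1, used for names only. Groups came from the titles.

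EBE-XVE and WT were compared with limma 3.58.1 in R 4.3.3 (lmFit, eBayes with trend, group only, Benjamini-Hochberg over all probe sets, 2-sided). The code was tested on simulated data without a replicate 1 shift, which does not show the power of the fit on these arrays. The genes and lists were chosen with earlier results of these data known, so no p is given for them. A 2-fold difference is 1 log2 unit. All 10 genes were named, and the array farthest from a gene's median of 6 values was called the one that stands out. Other listed genes were named from 12 set regulators and enzymes, or else the 3 of each list with the highest mean. The 6 most similar genes were taken by Pearson's r among named probe sets spanning at least 2 log2 units. Deviations from the group means correlated at 0.79, 0.54 and 0.58 in pairs 1, 2 and 3, each over 0.1, and by that rule arrays of equal number were taken as pairs. Only pair 1 stood out, since EBE-XVE replicate 2 correlated at 0.55 with WT replicate 3, and EBE-XVE replicate 3 at 0.60 with WT replicate 2. The rule thus could not tell pairs 2 and 3 from the crossed pairing, and these pairs rest on the replicate numbers alone. No arrays were identical. P-values set a group difference against the spread among these arrays, and say nothing of the spread between independent lines. Depth does not apply to arrays, whose number limits the precision. Promoter and protein sequences were not analysed here.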

Additional observations from a re-analysis of the deposited data

How the results depend on the processing

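Quantile normalization, median centring, a replicate block, eBayes without trend, omission of dim probe sets (mean signal under the 40th percentile), and omission of each array all gave 0 calls in limma. Probe sets with an unadjusted p under 0.05 numbered 79, and 462 with the replicate block, and 42 to 248 with each array left out. The replicate block could not move the group differences, since each replicate number held 1 array per genotype, so the median of the 10 genes stayed at 0.97. The block narrowed the SE of these genes from a range of 0.76 to 2.11 to one of 0.44 to 1.56. It changed no call, but the genes with a difference smaller than their SE went from 7 to 3. The median difference was 0.15 to 2.07 with each array left out, and 0.93 and 1.00 under the other scalings. Over 90 alternatives for the single genes the sign turned in 6, all of them with an array left out. The replicate block, counted among these alternatives, could turn none. The pair 3 count of genes at least 2-fold lower was 3, but 5 with quantile normalization and 1 at 4-fold. The pair 1 count was 3, but 0 at 4-fold. Quantile normalization took the genes with both 2-fold differences, in pairs 2 and 3, from 2 to 4. The median correlation of 0.77 was 0.69 to 0.84 with each array left out, and 0.47 without EBE-XVE replicates 2 and 3 together, an alternative chosen after the data were seen, as were those for the highest and lowest arrays, for both 2-fold differences together and for the SE count. The 4-fold counts use a stricter limit, and for the other changes the cause was not tested. Without signal over background, the lowest readings have no known floor.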

Other observations

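Some other low-oxygen genes departed from the pattern of the 10 in part, and they were named after their values were seen. AT3G29970 had the directions of the 10 in pairs 2 and 3, at 2.77 and -0.13. In pair 1 it stood at -1.38, where the lowest of the 10 was -0.43. Like AT3G27220 and AT4G27450, AT3G29970 was high on both replicate 1 arrays, at 7.66 in EBE-XVE and 9.05 in WT. It read 5.95 in EBE-XVE replicate 2. It read 3.03 on the array labelled EBE-XVE replicate 3, beside 3.18 and 3.17 in WT replicates 2 and 3. AT3G23170 was 3.18 log2 units higher in EBE-XVE in pair 2 and 1.08 higher in pair 3. All 10 genes read at or below WT in pair 3 in the deposited values, a direction for which they were chosen. AT5G45960 stayed between 1.93 and 2.07 on every array, below the lower quartile of each.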
